A study of Mus musculus with 21 samples.

Results

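The nuclear-encoded subunits of the mitochondrial respiratory chain were examined in cultured mouse aortic smooth muscle cells. The genes were chosen by symbol: all that start with Ndufa, Ndufb, Ndufc, Ndufs, Ndufv, Uqcr, Cox4i, Cox5, Cox6, Cox7, Cox8 or Atp5, together with Sdha, Sdhb, Sdhc, Sdhd and Cyc1, without the Ndufaf assembly factors. Of 18193 genes with a probe set of their own, 83 were respiratory chain genes. Of these, 79 passed the filter on low signals and were tested among 12446 genes. They comprised 35 genes of complex I, 4 of complex II, 9 of complex III, 14 of complex IV and 17 of complex V, assigned by symbol. Cox7a1, Cox7b2, Cox8b and Ndufb4 stayed below the filter, and 8 more symbols (Ndufa11, Ndufa11b, Ndufab1-ps, Ndufb4b, Ndufb4c, Ndufs5-ps, Ndufs6 and Ndufs6b) were present only on probe sets shared with other symbols.

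Aortas of C57BL/6J males aged 10 to 12 weeks supplied the cells, which grew in DMEM/F12 with 10% FCS and had their last feed 24 h before stimulation. Control cultures received PBS. The others received 1 ng/ml of the cytokine TNF (tumour necrosis factor), 10 µg/ml of an antibody that triggers LTBR, the lymphotoxin beta receptor, or the combination of these. RNA was measured on 21 Affymetrix arrays. The 24 h time point had 4 arrays per group (replicate numbers 0 to 3) except the combination, which had 3 (numbers 1 to 3). The earlier times, 2 h and 6 h, had a single array, of number 0, for PBS and for either agonist. All groups share the strain, sex, tissue and medium, and no group carries a genetic change in the labels. LTBR and the TNF receptors belong to one receptor superfamily that signals through NF-kB.

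The respiratory chain carries electrons from NADH (complex I) and succinate (complex II) through complex III and cytochrome c to oxygen at complex IV, and complex V uses the resulting proton gradient to make ATP. Most of its subunits are encoded in the nucleus, and several complex IV subunits exist as a ubiquitous form and a form typical of muscle, lung or testis. In vascular smooth muscle, oxidative phosphorylation runs beside an active glycolysis.

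The replicate number left a stronger mark on the arrays than the treatment. Endothelial markers were high on the 24 h arrays numbered 0 (summed signal of 15 genes 22800 to 23990) and low on the others (1916 to 4440), and the 2 h and 6 h arrays, all numbered 0, resembled the former (19260 to 22090). Emcn (8889.8) and Pecam1 (5237.0) were the largest parts of the sum on number 0. Kdr (223.2 on number 0, 303.9 on number 3) and Cldn5 (53.1 and 77.9) ran the other way. The 9 smooth muscle markers summed to between 33860 and 54800 at 24 h, lowest on an array numbered 1. Acta2, smooth muscle actin, averaged 17445.0 to 19167.7 by number and was lowest on number 2. Myh11, the smooth muscle myosin heavy chain, was lowest on number 0 (137.8, against 638.2 to 2626.1). Cnn1 (1518.3), Lmod1 (632.9), Synpo2 (426.8) and Des (113.6) were also lowest on number 0. The other markers, Smtn, Mylk and Tagln, were lowest on number 1. Macrophage markers were highest on the arrays numbered 3 (3383 to 4730 over 9 genes, 1170 to 2120 on the others), and fibroblast markers on those numbered 1 (9490 to 12550 over 6 genes, 4864 to 7293 on the others). Of the fibroblast markers, Col14a1 was higher on number 2 (2724.4) than on number 1 (2455.7), and the dim Pi16 was highest on number 0 (31.0). Summed over 5 lymphocyte, 5 adipocyte and 8 striated muscle markers, signals stayed at or below 378.3, 1344 and 597.4 at 24 h, and Ucp1 of brown fat averaged 8.3 to 10.6. Since bulk RNA was measured, fewer cells of a type and less RNA per cell cannot be told apart. Each result on the respiratory chain is given with the replicate number as a block in the fit where this changed a call, and the calls were repeated without the arrays numbered 0.

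Respiratory chain genes varied little between arrays. Over the arrays numbered 1 to 3, their median SD was 0.11 on the log2 scale, against 0.21 for all genes tested, and 71 of 79 had an SD under 0.2 (89.87%, against 45.97%). Their probe sets were bright: by mean rank over the 24 h arrays, 71 of 79 lay above the 90th percentile (89.87%, against 21.96% of all genes tested). The median percentile was 96.51, against 77.16. Whether the small SD, or the narrow intervals given below, go with this signal was not tested. Of the sum of squares of a typical respiratory chain gene, 54.8% lay between replicate numbers and 19.42% between treatments (medians over the 79 genes, with 48.11% and 20.29% for all genes tested). Noise alone adds to each of these raw shares, and neither was tested.

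Neither agonist alone changed a respiratory chain gene past the threshold at 24 h. With the antibody, 0 of 79 genes were called in the limma fit (adjusted p under 0.05), where 0.129% of all genes tested were called. At an unadjusted p under 0.05 (limma) there were 0 without the block (4.307% of all genes) and 5, or 6.329%, with it (18.93% of all genes). With TNF, 0 of 79 were called, where 0.337% of all genes were, and the same unadjusted limma threshold gave 1 without the block (4.684% of all genes) and 4, or 5.063%, with it (19.16% of all genes). The replicate block left both counts at 0, where it raised the share of all genes called to 4.78% and 5.93%. The exception was the antibody without its array numbered 2, where Ndufv1, a core subunit of complex I named here after its value was seen, was called at 0.27 (adjusted p = 0.0358, limma, with the block; 3.65% of all genes were called in that fit). The median log2 change was 0.00 with the antibody and 0.02 with TNF, and for 74 of 79 genes in either comparison the 95% interval lay within 1.5-fold of no change (93.67%, against 64.55% and 64.86% of all genes). When arrays were scaled to equal medians, the medians became 0.08 and 0.06, and the number of genes below 0 went from 43 to 7 with the antibody and from 30 to 13 with TNF (the median of all genes went from -0.01 to 0.07 and from -0.02 to 0.02). The direction with the antibody thus depends on the scaling. With TNF the median lay above 0 under both, and 15 of 79 genes were higher than PBS in each of 4 pairs (18.99%, against 10.52% of all genes) and 3 lower in each (3.797%, against 14.39%).

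With the single agonists a few genes separated from PBS without passing the test. Counted in either direction, this was no more often than among all genes tested. Cyc1, which encodes cytochrome c1 of complex III, had signals of 3394.7, 3531.5, 3531.8 and 3455.4 with PBS, 3611.1, 3618.2, 3531.9 and 3598.1 with the antibody, and 3703.4, 3533.4, 3933.9 and 3614.5 with TNF. Its treated arrays lay above all PBS arrays in both comparisons, but narrowly. The lowest were 3531.9 with the antibody and 3533.4 with TNF, against a highest PBS array of 3531.8. It was the only respiratory chain gene whose groups did not overlap with the antibody, against 2.79% of all genes, and 1 of 2 with TNF, against 2.54%; the other was Atp5d, the delta subunit of the F1 part of ATP synthase. Atp5d read 6523.2, 6481.9, 6603.9 and 6490.8 with PBS and 7038.1, 7135.6, 7070.1 and 7028.6 with TNF. Neither gene was called in limma with or without the block. In the combination Atp5d was back at 6705.8, 6443.5 and 6761.8.

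Genes called with the combination of TNF and antibody mostly changed little and downward. Calls arose only when arrays of one number were compared with each other. Without the block, 0 of 79 genes were called against PBS, where 2.45% of all genes were, and 5 (6.329%) passed an unadjusted p under 0.05 in limma, against 11.47% of all genes; with the block 26 (32.91%) did, against 30.97%. With the block, 15 were called, 13 lower and 2 higher. The called share, 18.99%, was close to the 19.5% of all genes tested, so the count itself does not set the respiratory chain apart. By direction, 16.46% of the 79 genes fell, against 10.4% of all genes, and 2.532% rose, against 9.1%. Without the arrays numbered 0, 10 were called with the block, 9 lower and 1 higher, where 17.4% of all genes were called and 9.36% were lower. After scaling to equal medians, 3 of the 15 were still called: Ndufb10 and Cox6b2, lower, and Ndufa4l2, higher. In that fit 3.797% of the 79 genes were called, against 14.3% of all genes, and 2.532% fell, against 6.91%. The larger share of called falls in the respiratory chain was thus not seen after this scaling. The median log2 change of the 79 genes moved by less than 0.06 with it, so the sentence concerns calls alone.

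Most of the 79 genes lay slightly below PBS in the combination. The median log2 change was -0.05, against 0.00 for all genes tested, and 57 of 79 genes were below 0 (72.15%, against 49.07%). In 37 of 79 genes the combination array was lower than the PBS array of its own number in each of the 3 pairs (46.84%, against 25.27% of all genes), and in 8 it was higher in each (10.13%, against 24.22%). The median difference within a number was -0.04, -0.07 and -0.04 for numbers 1, 2 and 3, where the median of all genes was 0.00, -0.01 and 0.00. The 79 genes share arrays, so counts of genes over pairs, here and in the other comparisons, rest on 3 or 4 array pairs. Within groups, the array medians of the 79 genes had an SD of 0.06. With the antibody against PBS, the median difference within a number was 0.02, -0.01, -0.06 and 0.06 for numbers 0 to 3. The shifts in the combination were small: for 73 of 79 genes the 95% interval without the block lay within 1.5-fold (92.41%, against 55.3% of all genes). The groups did not overlap for 5 genes, all lower (Atp5e, Atp5pb, Ndufb10, Ndufb9 and Ndufc2). Of the 12446 genes tested, 606 did not overlap and were lower, and 834 were higher (11.6% in either direction). In the same comparison with the block, 5 of 9 smooth muscle markers were lower (Cnn1, Lmod1, Myh11, Smtn and Tagln) and 0 higher. Of 5 tested fibroblast markers Dpt and Pdgfra were higher and Col14a1 lower. Of all genes, 10.4% were lower and 9.1% higher. Without the block, Tagln was the only one of these markers called. With TNF alone and the block, 5 of 9 smooth muscle markers were also lower and 0 higher (2.876% and 3.05% of all genes). The part of cell composition in the shift was not tested.

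**Figure D1:**
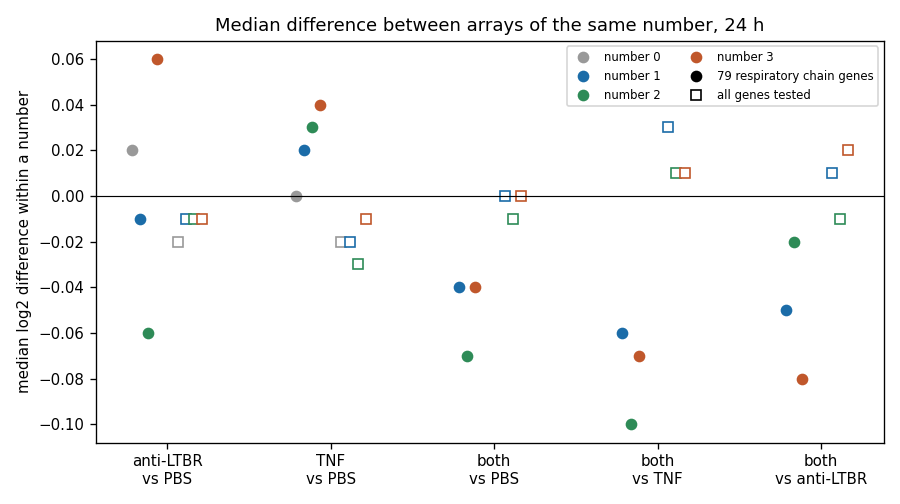
Median log2 difference between arrays of the same replicate number at 24 h (y axis) for 5 comparisons (x axis). Filled circles are the medians of the 79 respiratory chain genes, open squares those of the 12446 genes tested, and colours mark the replicate number; against PBS the combination gave -0.04, -0.07 and -0.04 for the respiratory chain genes, and the single agonists gave values on both sides of 0 or near it.

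Complex I takes electrons from NADH. Of its 35 tested genes 6 fell in the combination with the block (17.14%, against 10.4% of all genes) and 1 rose (2.857%, against 9.1%). Shares of single complexes, here and below, rest on few genes and were not tested against those of all genes. All 6 that fell encode accessory subunits, which surround the catalytic core: Ndufb10, Ndufb11, Ndufs5, Ndufa13, Ndufc1 and Ndufb9, the last of them outside the rule for named genes. The catalytic core subunits measured (Ndufs1, Ndufs3, Ndufs7, Ndufs8, Ndufv1 and Ndufv2) had blocked log2 changes from -0.08 (Ndufv2) to 0.22 (Ndufv1), and none was called. The list holds only these 6 core subunits among its 35 genes, so calls among the others alone are near what its make-up gives.

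Ndufb10 encodes an accessory subunit of the membrane arm. Its probe set (1428322_a_at) read 2899.5, 3414.5, 3009.4 and 2829.3 with PBS for numbers 0 to 3, and 2724.2, 2712.5 and 2356.7 with both agonists for numbers 1 to 3. The combination arrays all lay below the PBS arrays. With the block Ndufb10 fell by 0.24 ± 0.05 (SE; adjusted p = 0.0027, limma), a decrease of 15.5%, lower in 3 of 3 pairs. Without the block the change was -0.22 ± 0.10 (adjusted p = 0.434). It stayed called in each of the 15 blocked fits that left out 1 array, with changes from -0.27 to -0.21.

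Ndufb11, another membrane-arm subunit, read 6864.3, 7295.9, 7360.0 and 6676.9 with PBS and 6754.8, 5946.6 and 5946.0 in the combination. The groups overlapped only through number 1, and the blocked change was -0.19 ± 0.04 (adjusted p = 0.00671, limma). In the fit without the block its 2 other probe sets differed by -0.13 and -0.23, and this one by -0.18. Without the combination array numbered 2 the call was lost (adjusted p = 0.052, limma). Ndufs5, Ndufa13 and Ndufc1 fell by 0.18 ± 0.06, 0.16 ± 0.05 and 0.14 ± 0.04 with the block (adjusted p = 0.0386, 0.0327 and 0.0237, limma). Of the 15 fits without 1 array, 3 ended the call of Ndufc1 (the PBS array numbered 2 and the combination arrays numbered 2 and 3). Leaving out any PBS or any combination array ended that of Ndufa13. For Ndufs5, 8 fits ended it (PBS numbers 0, 2 and 3, each combination array, and TNF and antibody number 1). For Ndufb9, 7 did (PBS and combination numbers 1 and 3, TNF numbers 0 and 1, and antibody number 1). In the fit without the block the second probe set of Ndufb9 differed by 0.01, and the one used by -0.13. For Ndufc1 these values were -0.08 and -0.11.

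Ndufa4l2 was the respiratory chain gene that rose most. It is a paralog of Ndufa4 known to be induced by hypoxia-inducible factor, and Ndufa4 itself, although named for complex I, is now counted as a subunit of complex IV. The only Ndufa4l2 probe set (1434905_at) read 282.1, 716.7, 180.7 and 341.6 with PBS for numbers 0 to 3. It read 378.1, 773.3, 89.1 and 558.0 with the antibody and 306.9, 1013.5, 237.2 and 835.1 with TNF. In the combination it read 1036.9, 348.2 and 1027.1 for numbers 1 to 3. Within each treatment the arrays numbered 1 and 3 were high and those numbered 0 and 2 low, so the groups overlapped, yet within each number the combination array was the highest. With the block the rise was 0.99 ± 0.26 (adjusted p = 0.0173, limma), or 1.98-fold, higher in 3 of 3 pairs; without it the change was 1.08 ± 0.71 (adjusted p = 0.662). The call was lost without the PBS array numbered 3 (0.75, adjusted p = 0.0719, limma) or the combination arrays numbered 2 (0.83, adjusted p = 0.104, limma) or 3 (0.92, adjusted p = 0.0718, limma). With TNF alone the blocked change was 0.56 ± 0.24, higher in 4 of 4 pairs, and with the antibody 0.07 ± 0.24, and neither was called (adjusted p = 0.212 and 0.923, limma). Ndufa4 read 4812.5, 4591.9, 4659.2 and 4019.3 with PBS and 4362.8, 4602.2 and 4114.9 in the combination, a blocked change of -0.02 ± 0.04 that did not pass (adjusted p = 0.854, limma).

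**Figure D2:**
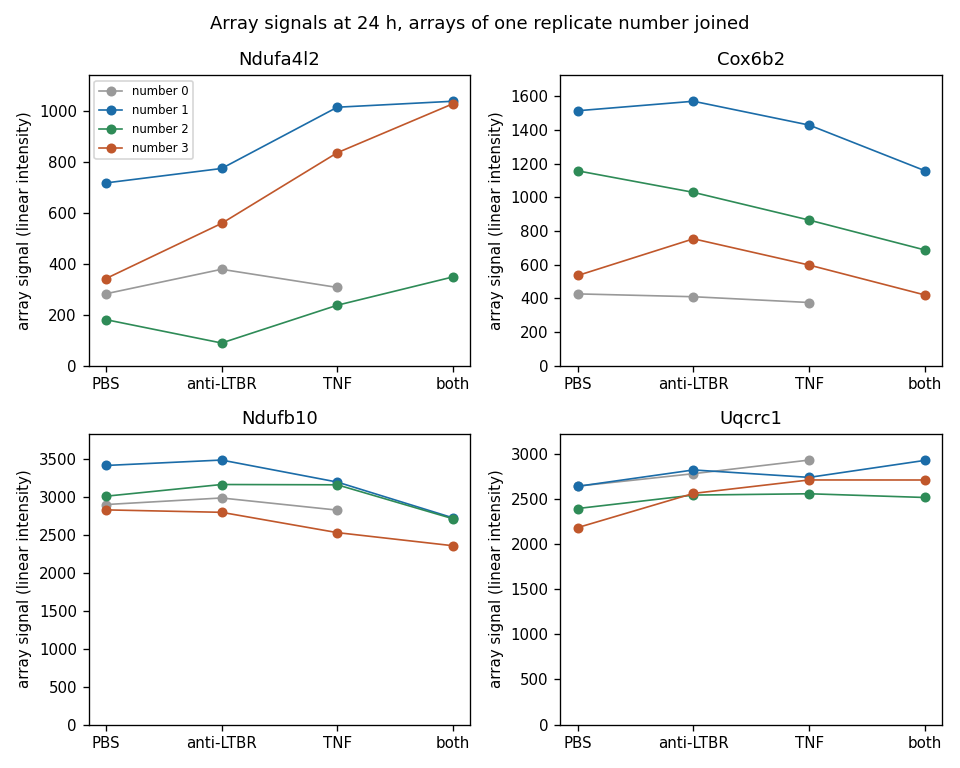
Array signal on a linear scale from 0 (y axis) at 24 h for PBS, antibody to LTBR, TNF and both agonists (x axis), for Ndufa4l2, Cox6b2, Ndufb10 and Uqcrc1. Each point is 1 array and lines join arrays of the same replicate number; the lines of Ndufa4l2 and Cox6b2 lie far apart, and each line of Cox6b2 and Ndufb10 that reaches the combination ends below its PBS point.

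Complex II oxidises succinate and is the smallest complex. All 4 genes were tested and 0 were called, with or without the block, with blocked changes in the combination from -0.06 to 0.01. Of all genes, 19.5% were called in the combination with the block and 2.45% without it. Sdhd and Sdhc, the membrane anchor subunits, had the smallest p-values. Sdhd read 2290.0, 2350.8, 2359.6 and 1935.5 with PBS and 2392.6, 2061.6 and 1822.3 in the combination, a blocked change of -0.06 ± 0.08. Sdhc read 2634.2, 3148.0, 2984.3 and 2546.6 with PBS and 3060.9, 2765.7 and 2523.3 in the combination, a blocked change of -0.04 ± 0.05. Both ranges overlapped widely.

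Complex III passes electrons on to cytochrome c. Of its 9 genes 1 fell and 1 rose in the combination with the block (11.11% each, against 10.4% and 9.1% of all genes). Uqcrh, the hinge protein that holds cytochrome c1, read 6721.6, 7895.0, 6929.3 and 7012.3 with PBS and 7467.1, 5818.1 and 6274.3 in the combination. It fell by 0.16 ± 0.04 (adjusted p = 0.0108, limma), lower in 3 of 3 pairs although the groups overlapped, and its second probe set differed by -0.02 in the fit without the block. Without the combination array numbered 2 the value was -0.12 (adjusted p = 0.0901, limma). Uqcrc1, a core protein of the complex, was the only called gene besides Ndufa4l2 that was higher. It read 2645.0, 2643.1, 2397.0 and 2185.4 with PBS and 2930.9, 2519.2 and 2713.2 in the combination, a rise of 0.17 ± 0.05 (adjusted p = 0.0339, limma), higher in 3 of 3 pairs. Uqcrc1 was also higher in 4 of 4 pairs with each agonist alone (0.12 ± 0.05 with the antibody and 0.15 ± 0.05 with TNF), which did not pass (adjusted p = 0.175 and 0.0797, limma). Its call in the combination was lost without the PBS array numbered 3, the TNF array numbered 0, or the combination arrays numbered 1 or 3 (adjusted p from 0.051 to 0.143, limma) and without the arrays numbered 0 (0.18, adjusted p = 0.0615, limma). Uqcr11 and Cyc1 had blocked changes of -0.17 ± 0.07 and 0.10 ± 0.05 and were not called.

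Complex IV reduces oxygen. Of its 14 tested genes 2 fell in the combination with the block, Cox6b2 and Cox4i1 (14.29%, against 10.4% of all genes). None rose, against 9.1% of all genes. Cox4i1, the ubiquitous form of the subunit that binds ATP as a regulator, read 8841.2, 9939.4, 9085.6 and 8636.2 with PBS and 9142.0, 8240.1 and 7809.0 in the combination, a fall of 0.12 ± 0.04 (adjusted p = 0.0287, limma) that was lost without the PBS arrays numbered 1 or 2 or the combination arrays numbered 2 or 3 (adjusted p from 0.0672 to 0.164, limma). Cox4i2, the form typical of lung and smooth muscle, read 180.7, 451.5, 137.6 and 302.2 with PBS and 231.8, 166.3 and 295.2 in the combination. Its blocked change of -0.27 ± 0.18 did not pass (adjusted p = 0.35, limma).

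Cox6b2 is known as the testis form of a subunit that Cox6b1 supplies in most tissues. Its only probe set (1435275_at) read 426.9, 1515.2, 1158.1 and 536.2 with PBS for numbers 0 to 3, 410.0, 1571.6, 1030.2 and 754.2 with the antibody, and 375.7, 1430.0, 865.4 and 598.2 with TNF. In the combination it read 1158.9, 687.9 and 420.6 for numbers 1 to 3, the lowest signal within each number. With the block Cox6b2 fell by 0.51 ± 0.10 (adjusted p = 0.00286, limma), a decrease of 29.8%, and it stayed called in all 15 blocked fits without 1 array, from -0.62 to -0.41. Without the block the change was -0.19 ± 0.55 (adjusted p = 0.962), as the numbers differ far more than the treatments. Without the arrays numbered 0, the blocked change was -0.49 (adjusted p = 0.0104, limma). Cox6b1 read 9090.3, 10956.1, 10084.8 and 9140.2 with PBS and 10688.3, 9226.1 and 8838.2 in the combination, a blocked change of -0.06 ± 0.04 that did not pass (adjusted p = 0.366, limma).

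The other isoform sets did not change past the threshold in the combination. Blocked changes were -0.05 ± 0.04 for Cox5a and -0.03 ± 0.05 for Cox5b, -0.07 ± 0.03 for Cox6a1 and -0.02 ± 0.15 for its heart and muscle form Cox6a2, and -0.06 ± 0.04 for Cox7a2. Cox7a2l, known for its part in assembling supercomplexes, changed by 0.01 ± 0.05. Cox8a, the ubiquitous form of subunit 8, changed by -0.12 ± 0.04 (adjusted p = 0.0688, limma) and Cox8c, its testis form, by 0.34 ± 0.13 (adjusted p = 0.1, limma). The 2 Cox8c probe sets disagreed in direction with the antibody (-0.12 and 0.53 without the block). The muscle forms Cox7a1 and Cox8b read at most 69.9 and 61.9 on any 24 h array, below the array medians of 107.4 to 139.0.

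**Figure D3:**
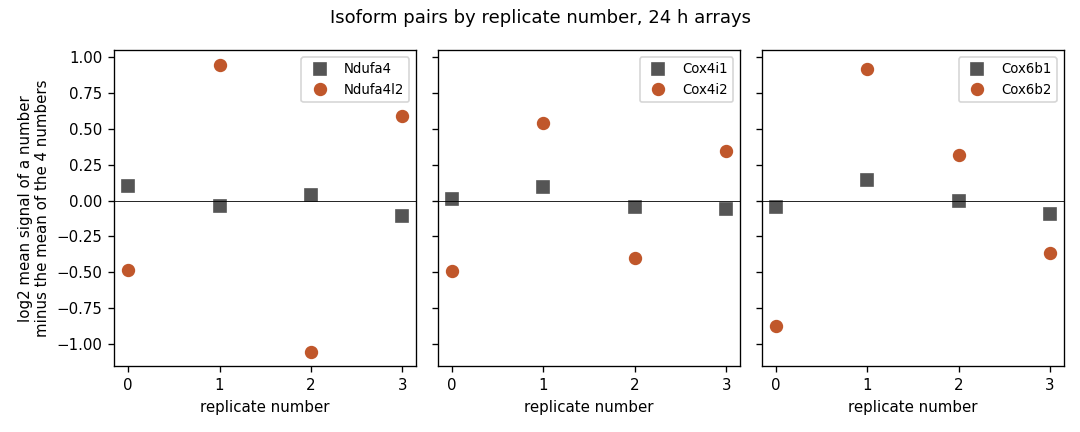
For each replicate number at 24 h (x axis), the log2 mean signal of a gene minus its mean over the 4 numbers (y axis), with squares for Ndufa4, Cox4i1 and Cox6b1 and circles for Ndufa4l2, Cox4i2 and Cox6b2. The circles spread widely, with mean signals from 213.8 to 885.1 for Ndufa4l2 and from 404.2 to 1419 for Cox6b2, and the squares stay near 0; the numbers have no order.

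The isoform partners also differed in how they varied between the replicate numbers. Ndufa4l2, Cox6b2 and Cox4i2 were the 3 respiratory chain genes with the widest range. Mean signals of Ndufa4l2 were 322.4, 885.1, 213.8 and 690.5 for numbers 0 to 3, a range of 2.13 in mean log2 signal. Cox6b2 averaged 404.2, 1419, 935.4 and 577.3, a range of 1.78, and Cox4i2 averaged 152.2, 321.2, 162.5 and 279.2, a range of 1.01. Cox7c and Cox8c followed, at ranges of 0.58 and 0.53. Cox6b2 and Cox4i2 were highest on number 1, as were the summed fibroblast markers. Both genes were lowest on number 0, where the summed endothelial markers were highest. Ndufa4l2 was also highest on number 1 but lowest on number 2. Among genes with narrower ranges, Sdha (4316) and Ndufa2 (6237) were highest on number 1, and Cox7c (103.2) was lowest there. The part of cell composition in these ranges was not tested.

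Complex V makes ATP. Of its 17 genes 4 fell in the combination with the block (23.53%, against 10.4% of all genes): Atp5h, Atp5e, Atp5pb and Atp5l. None rose, against 9.1% of all genes. Atp5l, subunit g, lies outside the rule for named genes, and 10 of 15 fits without 1 array ended its call. Atp5e, the epsilon subunit of the F1 part, read 3336.3, 3731.9, 3551.8 and 3597.1 with PBS and 2838.9, 3201.5 and 3142.9 in the combination. The groups did not overlap, and the gene fell by 0.23 ± 0.06 (adjusted p = 0.0163, limma), a decrease of 14.5%. The call was lost without the PBS or the combination array numbered 1 (-0.20 and -0.15, adjusted p = 0.0652 and 0.119, limma).

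Atp5h and Atp5pb encode subunits of the peripheral stalk. Atp5h read 8561.4, 9731.2, 8150.9 and 8476.3 with PBS and 8501.4, 7846.2 and 5976.2 in the combination, where the array numbered 3 stood lowest. It fell by 0.24 ± 0.07 (adjusted p = 0.0327, limma), but differed by -0.12 (adjusted p = 0.211, limma) without that array; its second probe set differed by -0.42 in the fit without the block. The PBS arrays numbered 1 and 3 also decided the call (adjusted p = 0.0903 and 0.119, limma, without them). Atp5pb read 8931.3, 8410.0, 9264.3 and 8937.0 with PBS and 7844.4, 8351.4 and 8087.9 in the combination, a fall of 0.13 ± 0.04 (adjusted p = 0.0209, limma) with no overlap. That call was lost without the PBS array numbered 3 or the combination arrays numbered 2 or 3 (adjusted p from 0.0589 to 0.111, limma). In the fit without the block the second probe set of Atp5pb differed by -0.06, and the one used by -0.13. The 3 genes for subunit c of the rotating ring, Atp5g1, Atp5g2 and Atp5g3, had blocked changes of -0.08 ± 0.05, 0.05 ± 0.05 and -0.06 ± 0.04, and none was called.

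**Figure D4:**
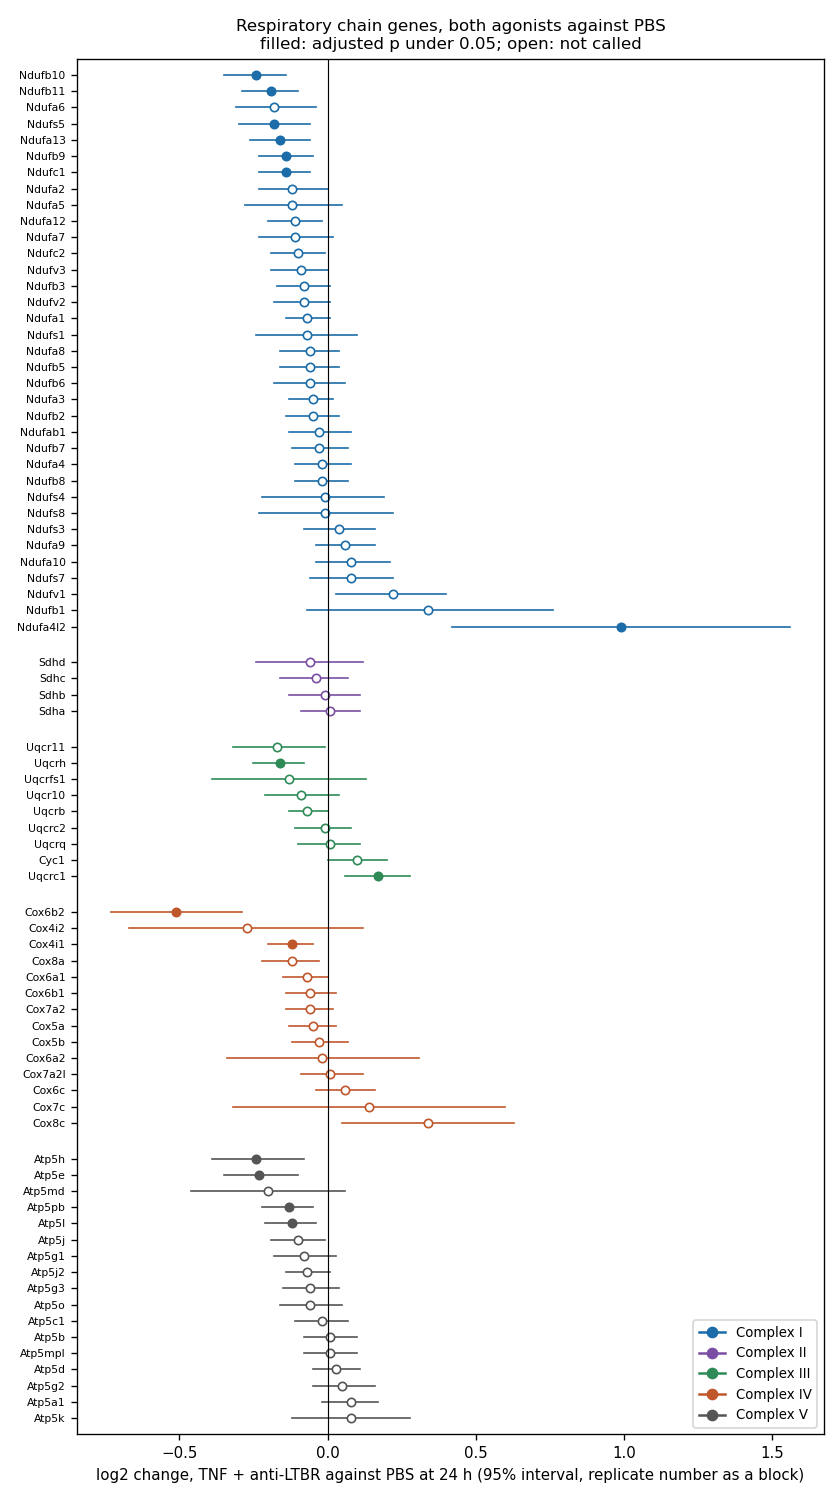
Log2 change in the combination against PBS at 24 h (x axis) with its 95% interval, from the fit with the replicate number as a block, for each of the 79 respiratory chain genes (y axis), coloured by complex. Filled points are the 15 genes with an adjusted p under 0.05; 13 lie to the left of 0, and Uqcrc1 and Ndufa4l2 lie to the right.

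Against the single agonists the combination gave fewer calls. The combination and the single agonists were compared on arrays that partly recur in the comparisons with PBS, so the values stand side by side. Against TNF, 0 of 79 genes were called without the block (0.0482% of all genes) and 3 (3.797%) passed the unadjusted threshold in limma, against 4.749% of all genes; with the block 26 (32.91%) did, against 21.56%. With the block 6 fell and 0 rose (7.595%, against 3.32% of all genes that fell and 6.78% called in either direction): Ndufc1 by 0.19 ± 0.04, Ndufb11 by 0.20 ± 0.04, Ndufb10 by 0.19 ± 0.05, Atp5pb by 0.14 ± 0.04, Cox6b2 by 0.38 ± 0.10 and Atp5h by 0.26 ± 0.07 (adjusted p from 0.0131 to 0.0496, limma). Leaving out 1 array ended the calls of Cox6b2 and Atp5h in 10 of 15 fits each, of Ndufb10 in 7, of Atp5pb in 6, of Ndufb11 in 2 and of Ndufc1 in 1. Scaling to equal medians left 0 of these calls (3.97% of all genes were called). In 42 of 79 genes the combination array was lower than the TNF array in each of 3 pairs (53.16%, against 18.38% of all genes), with a median log2 change of -0.06, against 0.03. Of the 79 genes, 6 did not overlap between the groups, all lower. Of the 12446 genes tested, 192 did not overlap and were lower, and 392 were higher (4.69% in either direction).

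Against the antibody, 0 of 79 were called without the block (0.362% of all genes), and 3 (3.797%) passed the unadjusted threshold in limma, against 4.596% of all genes; with the block 22 (27.85%) did, against 18.88%. With the block 3 fell and 0 rose (3.797%, against 2.8% of all genes that fell and 5.58% called in either direction): Cox6b2 by 0.59 ± 0.10 (adjusted p = 0.00371, limma), Ndufb10 by 0.27 ± 0.05 (adjusted p = 0.00396, limma) and Ndufc1 by 0.16 ± 0.04 (adjusted p = 0.0337, limma). Cox6b2 and Ndufb10 stayed called after scaling to equal medians (4.38% of all genes were called) and in each of 15 fits without 1 array; Ndufc1 was lost in 7 of them. The groups did not overlap for 6 genes, all lower. Of the 12446 genes tested, 217 did not overlap and were lower, and 459 were higher (5.43% in either direction). TNF and the antibody differed in 0 of 79 genes with and without the block (0.723% and 0.0161% of all genes called), with 1 past the unadjusted threshold in limma without the block (1.266%, against 1.936% of all genes) and 8 with it (10.13%, against 11.39%). Their groups did not overlap for Atp5d (higher with TNF) and for Atp5e and Atp5g1 (lower with TNF), where 1.23% of all genes did not overlap.

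The interaction term asks whether the combination departs from the sum of the single agonists. It was called for 0 of 79 genes without the block (0.0% of all genes; 0 of 79 with an unadjusted limma p under 0.05, against 1.326% of all genes) and with it (0.0161% of all genes). The smallest adjusted p with the block was 0.311 (limma), for Ndufc1, with an interaction of -0.21 on the log2 scale. Ndufb10 followed at -0.22 and Cox6b2 at -0.46 (adjusted p = 0.363 and 0.368, limma). At an unadjusted p under 0.05 in limma there were 10 of 79 with the block (12.66%, against 9.634% of all genes), and 65 of 79 interactions lay below 0 (82.28%, against 44.67%). With equal medians as well there were 28 (35.44%, against 11.02%), and 73 lay below 0 (92.41%, against 68.06%). No single gene was thus shown to depart from additivity, while most interactions were negative.

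At 2 h and 6 h there was 1 array per group, so differences have no replicate check and no test. Of 79 genes, 0 differed 1.5-fold from PBS with the antibody at 2 h (4.92% of all genes), 1 with TNF at 2 h (7.69%), 1 with the antibody at 6 h (5.79%) and 2 with TNF at 6 h (9.74%). At 2 h with TNF the gene was Ndufs4, an accessory subunit of complex I, at 1163.2 against 1802.5 (-0.63 on the log2 scale). At 6 h Cox8c read 621.3 with PBS, 998.5 with the antibody and 1139.1 with TNF (0.68 and 0.86). The PBS arrays at 2 h and 24 h read 1100.1 and 1214.2 for Cox8c, so the 6 h PBS array was the low one; it was the only respiratory chain gene past 1.5-fold between PBS arrays at 6 h and at 2 h (5.26% of all genes) or 24 h (8.93%). Ndufa4l2 read 181.8 with TNF and 278.3 with PBS at 6 h (-0.59), a difference opposite in sign to the one at 24 h.

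The other large differences at the early times lay below 1.5-fold. Atp5md, a small subunit of complex V, read 6567.6 with the antibody and 6178.1 with TNF at 2 h, against 4384.5 with PBS (0.58 and 0.49). At 24 h on the arrays numbered 0 it ran the other way, 4045.9 and 4063.6 against 6237.7, the only gene of the 79 past 1.5-fold in either comparison (8.15% and 6.13% of all genes). Ndufab1, the mitochondrial acyl carrier protein, read 2640.9 against 3547.6 with TNF at 6 h (-0.42), and Ndufb1 413.5 against 331.4 (0.31). With TNF at 6 h the median of the 79 genes was -0.11, against 0.01 for all genes tested; scaled to equal medians the values were -0.24 and -0.12, so the gap between them remained while both moved.

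**Figure D5:**
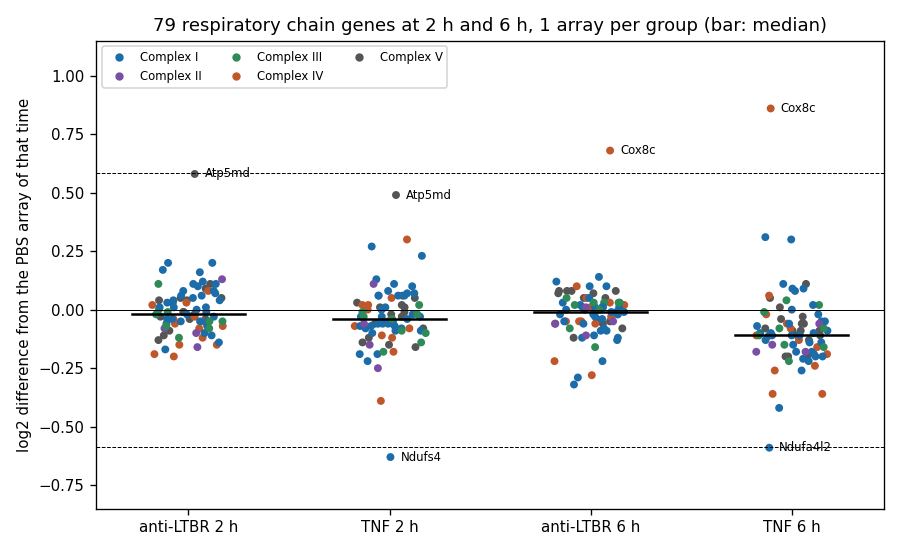
Treated array minus the PBS array of its time, in log2 signal (y axis), for the 79 respiratory chain genes at 2 h and 6 h (x axis), 1 array per group, coloured by complex, with a bar at the median and dashed lines at 1.5-fold. Cox8c is highest at 6 h (0.68 and 0.86), Ndufs4 is lowest with TNF at 2 h (-0.63), and the bar for TNF at 6 h lies at -0.11.

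Genes that serve the respiratory chain gave few calls in the combination. Without the block 0 of 42 assembly factors, 0 of 16 citric acid cycle genes, 0 of 16 regulators of mitochondrial biogenesis and mitochondrial DNA, 0 of 76 mitochondrial ribosomal protein genes and 0 of 13 electron carrier genes were called. With the block, 1 assembly factor was higher (Sco2, a copper chaperone of complex IV) and 4 were lower (Cox17, Surf1, Ndufaf7 and Tmem126b). The citric acid cycle had 1 higher (Suclg2) and 1 lower (Idh3a), the regulators 0 higher and 1 lower (Tfb1m), the ribosomal proteins 2 higher and 4 lower, and the electron carriers 0 in either direction. Against the 9.1% of all genes higher and 10.4% lower with the block, these counts are low or near the background. Glycolysis genes were called only upward: of 14 tested genes 3 rose with the antibody, 7 with TNF and 7 with both agonists, and 0 fell, with the block, where 2.56%, 3.05% and 9.1% of all genes were higher. Pfkl, the liver form of phosphofructokinase, was the one called without the block, at 0.65 ± 0.13 in the combination (adjusted p = 0.0161, limma).

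For likeness only, the deviations from the group means over the 15 arrays at 24 h were compared between each other gene and the mean of the 79. The closest were Spcs1 (Pearson r = 0.961), Lurap1l (0.96), 9530068E07Rik (0.959), Atxn10 (0.953) and Pdia6 (0.952). These arrays share replicate numbers, which dominate the deviations.

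The promoters of the respiratory chain genes were searched for the letters of 2 motifs known from nuclear genes of mitochondria, on both strands: GCATGCGC, the core of the NRF1 site, and CCGGAAG, a core bound by ETS factors such as GABP. The windows were RefSeq promoters of GRCm38.p6, 250 bases before to 50 after a gene's start, and 67 of the 83 genes matched one. The first motif lay in the promoters of 9 of the 67 genes (13.43%) and of 3.049% of 27025 genes, the second in 17 (25.37%) and 9.928%. One promoter can hold both. Of the 15 genes called in the combination 12 matched a promoter, and 5 of these held either motif, as did 21 of the 67 respiratory chain genes (31.34%) and 12.36% of all genes. The 250 bases before the start are shown for Ndufb10, Uqcrh and Atp5h, which fell and represent complexes I, III and V, and for Cox6b1 and Cox6b2, the ubiquitous and testis isoforms, of which the latter fell; capitals mark a motif match. All 5 are written 5′ to 3′ along the gene. They lie at chr17:24724424-24724673 (minus strand), chr4:116075071-116075320 (minus strand), chr11:115419920-115420169 (minus strand), chr7:30626115-30626364 (minus strand) and chr7:4753095-4753344 (minus strand).
Ndufb10: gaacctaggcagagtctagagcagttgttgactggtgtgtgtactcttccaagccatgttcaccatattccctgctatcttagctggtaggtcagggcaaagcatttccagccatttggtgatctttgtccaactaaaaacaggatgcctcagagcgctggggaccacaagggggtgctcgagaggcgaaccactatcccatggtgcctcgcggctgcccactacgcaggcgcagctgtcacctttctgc
Uqcrh: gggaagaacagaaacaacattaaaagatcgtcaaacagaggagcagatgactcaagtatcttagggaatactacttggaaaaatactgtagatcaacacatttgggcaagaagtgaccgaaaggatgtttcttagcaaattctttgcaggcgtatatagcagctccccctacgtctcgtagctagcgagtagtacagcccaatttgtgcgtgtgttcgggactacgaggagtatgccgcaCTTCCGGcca
Atp5h: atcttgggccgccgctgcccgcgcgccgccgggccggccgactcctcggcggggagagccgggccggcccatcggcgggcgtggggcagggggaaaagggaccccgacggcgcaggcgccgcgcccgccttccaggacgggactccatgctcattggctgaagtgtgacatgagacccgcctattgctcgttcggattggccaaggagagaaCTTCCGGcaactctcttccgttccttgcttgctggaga
Cox6b1: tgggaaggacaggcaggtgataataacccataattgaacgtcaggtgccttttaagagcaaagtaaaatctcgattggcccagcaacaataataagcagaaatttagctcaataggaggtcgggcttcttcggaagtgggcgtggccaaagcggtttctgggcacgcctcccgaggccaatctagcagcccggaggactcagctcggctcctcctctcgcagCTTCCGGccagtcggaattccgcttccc
Cox6b2: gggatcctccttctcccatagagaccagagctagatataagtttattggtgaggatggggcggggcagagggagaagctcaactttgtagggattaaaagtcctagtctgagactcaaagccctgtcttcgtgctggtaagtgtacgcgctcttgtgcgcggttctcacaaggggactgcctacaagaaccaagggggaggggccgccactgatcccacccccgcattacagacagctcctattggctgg
Uqcrh, Atp5h and Cox6b1 each held 1 match to the ETS core, on the reverse strand, and Ndufb10 and Cox6b2 held none in these letters. Matches were thus found before genes that fell and before one that did not pass, and a match says nothing about binding in these cells.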

How the data were processed

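The deposited values are linear signal intensities of 1 array per sample, which the authors made with GCOS 1.4, per the submitters' processing notes. Each array has a mean of 500.0 without its highest and lowest 2 percent, and how background was corrected and probes summarized is not stated in the labels used here. Values were used as deposited and tested as log2(signal + 10.2); 10.2 was the 10th percentile at 24 h, so fold changes of dim genes are understated. A probe set was tested if 3 or more of the 15 arrays at 24 h read above their own median; 25110 of 45101 passed, and a gene used its brightest one. Probe sets with 1 symbol numbered 34945, with several 932, and with none listed 9160; 64 control probe sets were left out. Names come from the platform annotation.

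limma 3.58.1 in R 4.3.3 fitted all 15 arrays at 24 h (11 residual degrees of freedom, 8 with the replicate number as a block), with Benjamini-Hochberg adjustment over all 12446 genes. Since the meaning of a replicate number (its own culture, animal or neither) is not in the labels, p-values reflect the spread among these samples, which may be technical. The numbers pair the arrays: with group means removed, the 21 same-number pairs correlated at 0.46 to 0.81 and the 63 others at -0.58 to 0.21. The scripts were tested on simulated data. The respiratory chain genes, the other lists and the tests were chosen with earlier results of these data known. Named genes were, in each comparison, every called gene (with the block, since no gene was called without it) or the 10 with the largest change, the 2 smallest p-values of each complex, all isoform sets, the largest early differences, the 3 most variable genes between numbers and 5 similar genes. The arrays' number limits the precision.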

Additional observations from a re-analysis of the deposited data

Results flagged for a closer look

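In groups of 4 arrays at 24 h, the gap of the highest or lowest array to the next was compared with the range of the group for 37 named genes (111 groups). A gap above 0.829 of the range was found in 7. Chance gives about 1 in 20 independent groups, but these groups share replicate numbers. Cox6a1 read 15032.5 with PBS and 15078.6 with TNF on the arrays numbered 1, above the other arrays (12656.9 to 12912.7 and 12549.7 to 12923.0). It was also highest on number 1 with the antibody (14115.8) and in the combination (14419.3). Uqcr11 with TNF (3985.7, others 3527.9 to 3539.2) and Sdhc with the antibody (3333.2, others 2678.5 to 2784.3) were also high on the arrays numbered 1. Atp5g1 with the antibody was high on the array numbered 0 (2841.1, others 2601.6 to 2629.4). Ndufa13 with PBS was low on the array numbered 0 (7691.9, others 9100.1 to 9254.8), and Sdhd with PBS on the array numbered 3 (1935.5, others 2290.0 to 2359.6). Ndufa13 was also lowest on number 0 with the antibody (7342.3) and with TNF (7181.0). Without the PBS array numbered 0, Ndufa13 in the combination was not called with the block (-0.15, adjusted p = 0.0578, limma).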

How the results depend on the processing

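Without the block, counts of called respiratory chain genes at 24 h were 0 in the 7 comparisons under each alternative tried: other pseudocounts, filters, scalings, probe set rules, no variance trend, numbers 1 to 3 only, and each array left out. The block moved the count against PBS in the combination to 15 (3 with equal medians, 10 for numbers 1 to 3 only), against TNF to 6 (3 for numbers 1 to 3 only) and against the antibody to 3 (2 with equal medians, 3 for numbers 1 to 3 only); it left the other counts at 0. The fits with the block on numbers 1 to 3, or with 1 array left out, were chosen after seeing the data. With 1 array left out the blocked counts ranged from 5 to 16 against PBS, 1 to 6 against TNF, 2 to 5 against the antibody, and 0 to 1 for the antibody against PBS. Against PBS the count was 5 without the combination array numbered 3, 6 without that numbered 2, 9 without the PBS array numbered 1 or that numbered 3, 10 without the combination array numbered 1, and 11, 12, 13, 15 or 16 otherwise. Against TNF it was 1 without the combination array numbered 2, 2 without that numbered 3 or the TNF array numbered 1, 3 without the combination array numbered 1 or the TNF arrays numbered 2 or 3, and 4, 5 or 6 otherwise. Against the antibody it was 5 without the antibody array numbered 2, and 2, 3 or 4 otherwise.

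Equal medians moved the median log2 change with the antibody from 0.00 to 0.08 (0.08 with the block), of the combination against the antibody to -0.12 (-0.13 with the block) and of the interaction to -0.19 (-0.19 with the block); at 2 h and 6 h with TNF it gave -0.10 and -0.24. The other medians of the 7 comparisons at 24 h and the 4 agonist comparisons at 2 h and 6 h moved by less than the SD of the array medians within groups, 0.06. At 2-fold 0 genes passed at 2 h and 6 h, and a pseudocount of 50 left 1 with TNF at 6 h. No called value changed sign. The cause of these differences was not tested. Dim genes such as Cox7c are limited by the array background.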
